A study of Mus musculus with 29 samples.

Results

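ON bipolar cells (ON-BC) and OFF bipolar cells (OFF-BC) of the adult mouse retina were compared gene by gene by RNA-seq, in 3 libraries of each population. These 6 libraries are part of a series of 29 samples, 15 of which are RNA-seq libraries, and all 6 were chosen by their labels. The other 9 RNA-seq libraries (all bipolar cells, rods and *Nrl*-/- photoreceptors that stand in for blue cones) served to estimate the spread and to recognise RNA carried over from photoreceptors. The libraries of all bipolar cells came from Otx2-GFP+/- mice 47, 44 and 44 days old, rods from Nrl-eGFP mice and the *Nrl*-/- photoreceptors from Nrl-eGFP;NrlKO mice, both 56 days old. Both populations came from mice of 1 genotype, Otx2-GFP+/-; Grm6-YFP+/+, in which GFP stands at the *Otx2* locus and YFP is driven by the *Grm6* promoter. ON-BC were taken by brighter fluorescence in a single sort, and OFF-BC were sorted a second time to remove weakly fluorescent photoreceptors. The study reports that cells of the ON type BC5D, with low YFP, were likely left out of both populations. The mice were 43, 48 and 42 days old for replicates 1, 2 and 3 of each population, and the study's supplement lists retinas of male and female mice together for each library. Population and number of sorts therefore cannot be told apart in any value below, and the YFP gate itself depends on the *Grm6* promoter.

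Bipolar cells carry signals from photoreceptors to amacrine and ganglion cells. ON bipolar cells detect glutamate with the metabotropic receptor mGluR6, encoded by *Grm6*, whose G protein cascade closes the TRPM1 channel in darkness, so that they depolarise when light lowers glutamate release. OFF bipolar cells use ionotropic kainate and AMPA receptors and depolarise in darkness. Each population holds several types, which end in different layers of the inner retina, and the comparison asks which transcripts separate the classes beyond the glutamate receptors.

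A library held 14974898 to 15695544 reads counted on genes in ON-BC (median 15322523) and 12329548 to 14633867 in OFF-BC (median 13883651). Values below are normalized counts, that is, reads counted on a gene and scaled by the authors with 1 factor for each library, and are given in the order of replicates 1, 2 and 3. A log2 fold change is the mean of log2(normalized count + 1) in ON-BC minus that in OFF-BC, so negative values are higher in OFF-BC, and 1 added to each count makes the changes of genes with few reads smaller. Pearson correlations of the log2 values across genes were 0.979 among the ON-BC libraries, 0.975 to 0.98 among the OFF-BC libraries and 0.895 to 0.913 between the populations. Replicates differed by more than read counting gives, with a chi-square per gene of 12.8 to 25.5 between pairs of replicates. The standard errors and p-values rest on a spread estimated over all RNA-seq populations together. They therefore also hold the spread among libraries of rods, *Nrl*-/- photoreceptors and all bipolar cells, and not that of ON-BC and OFF-BC alone. *Otx2*, a transcription factor gene of bipolar cells and photoreceptors, was read at 9451, 8743 and 9750 in ON-BC and at 12264, 10858 and 11908 in OFF-BC.

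OFF-BC replicate 3 held more RNA of genes enriched in ON-BC and of *Opn1sw* than the other OFF-BC libraries. The 125 genes called at least 16-fold higher in ON-BC (log2 fold change of 4 or more) had a median level of 2.436% and 1.178% of the ON-BC mean in OFF-BC replicates 1 and 2, and of 5.507% in replicate 3. In the reverse direction, the 161 genes called at least 16-fold higher in OFF-BC had medians of 1.376%, 1.683% and 1.422% of the OFF-BC mean in the 3 ON-BC libraries. *Opn1sw*, the short-wavelength cone opsin gene, was read at 4477 and 4314 in OFF-BC replicates 1 and 2 and at 55813 in replicate 3, against 822.4, 772.1 and 447.3 in ON-BC. The summed level of the Müller glia genes was lowest in this library among the OFF-BC libraries, and that of the amacrine genes lay between the other two.

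Of 14024 genes with enough reads to test, of 24062 in the table, 874 (6.23%) differed by more than 2-fold between the populations. ON-BC were higher at 393 of them (2.8%) and OFF-BC at 481 (3.43%), by limma's test against a log2 fold change of 1 at an adjusted p below 0.05. The fitted changes of the called genes ran from 1.39 to 6.24 (median 3.46) where ON-BC were higher and from 1.36 to 8.35 in size (median 3.39) where OFF-BC were higher, while the median over all tested genes was -0.02. The libraries of the populations did not overlap at any of the 874 called genes, against 42.2% of all tested genes. Another 21 genes higher in ON-BC and 24 higher in OFF-BC passed the test but were over 16-fold higher still in a photoreceptor population (rods, blue cones) than in the bipolar cells they were enriched in, and were set aside as possible carry-over. Most called genes were protein-coding (372 of those higher in ON-BC, 447 of the others), and 19 and 25 were long noncoding RNAs. The level of the called genes in the population where they were higher had a median of 295.7 normalized counts in ON-BC (quartiles 59.53 and 1152) and 234.8 in OFF-BC (quartiles 64.2 and 914.6). At 183 called genes the lower population had fewer than 5 reads in each of its 3 libraries. Without OFF-BC replicate 3, the counts were 396 in the ON direction and 434 in the OFF direction, and 784 of these genes were shared with the 874.

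**Figure D1:**
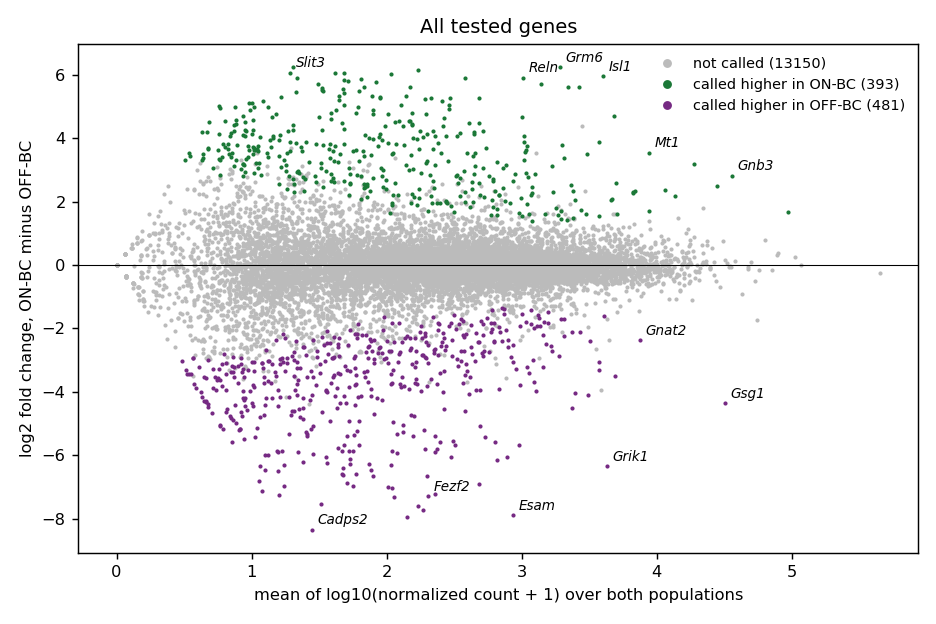
Log2 fold change of the 14024 tested genes (vertical axis, ON-BC minus OFF-BC) against the mean of log10(normalized count + 1) over both populations (horizontal axis), with 393 genes called higher in ON-BC in green, 481 called higher in OFF-BC in purple and the others in grey. Named genes lie at both edges over the whole range of levels, from *Slit3* and *Cadps2* at low levels to *Gnb3* and *Gsg1* at high levels.

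The markers of each class lay with the label of the library. *Grm6* was read at 13260, 13835 and 13401 in ON-BC and at 145.3, 64.88 and 592.6 in OFF-BC, a check of the sort since the YFP that separated the cells is driven by its promoter. *Isl1*, a LIM homeobox gene of ON-BC, was read at 24419, 28015 and 26357 in ON-BC and at 343.1, 162.2 and 1329 in OFF-BC (log2 fold change 5.96 with standard error 0.58, limma adjusted p = 8.04e-06). The highest OFF-BC value of both genes was that of replicate 3. On the OFF side, *Grik1*, which encodes a kainate receptor subunit, was read at 458.1, 568.3 and 381.7 in ON-BC and at 50164, 37690 and 28558 in OFF-BC (-6.35, standard error 0.45, limma adjusted p = 2.26e-07). *Esam*, an immunoglobulin adhesion gene best known from endothelial cells, was read at 69.13, 55.85 and 42.07 in ON-BC and at 14204, 12160 and 13199 in OFF-BC, and *Tacr3*, the neurokinin 3 receptor gene, at 18.57, 18.62 and 2.052 in ON-BC and at 1801, 2749 and 1734 in OFF-BC. The libraries of the classes did not overlap at any of these markers, which held at every called gene. In such sorted populations fewer cells of a type and less RNA per cell cannot be told apart.

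Among genes known to mark single bipolar types, 12 of 19 tested ON markers were higher in ON-BC (63.2%, median log2 fold change of the list 3.55) and 8 of 15 tested OFF markers were higher in OFF-BC (53.3%, median -4.25), with none in the opposite direction. These lists also hold genes that mark a class and not a single type: the called ON markers include *Grm6*, on whose promoter the sort rests, and *Isl1*, and the called OFF markers include *Grik1*. *Prkca*, the protein kinase C gene that marks rod bipolar cells, was read at 9037, 9025 and 6656 in ON-BC and at 105.1, 66.08 and 533 in OFF-BC, and it was the called member of the 5 tested protein kinase C genes. *Car8*, *Vstm2b*, *Htr3a* (a serotonin-gated channel gene) and *Igfn1* also had log2 fold changes between 4.53 and 5.89, and *Rpa1*, with 14525 ± 843.7 (SD, n = 3) in ON-BC and 3005 ± 369 in OFF-BC, had one of 2.28. For each of these markers, as for every gene called in ON-BC, the 3 ON-BC libraries lay above the 3 OFF-BC libraries. *Erbb4*, a neuregulin receptor gene, was read at 5.159, 3.919 and 1.026 in ON-BC and at 298.4, 352 and 250.5 in OFF-BC (-6.24, standard error 0.44, limma adjusted p = 2.2e-07), and *Nnat* at 491.1 ± 58.83 and 11290 ± 1642. Markers of single types that did not pass the test included *Sox6* (982 ± 113.6 in ON-BC and 1100 ± 54.24 in OFF-BC), *Slitrk5* (466 ± 108.1 and 280.4 ± 47.4) and *Hcn4* (29.51 ± 8.705 and 111.3 ± 5.588, -1.92, limma adjusted p = 0.461).

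The 10 genes with the largest changes in each direction included few of these markers. In ON-BC they were *Tmem196*, *Grm6*, *A230077H06Rik*, *Slit3*, *Il1rapl2*, *Smoc2*, *Ano3*, *Isl1*, *Fam20a* and *Reln*, with log2 fold changes from 5.91 to 6.24. *Reln*, which encodes the secreted glycoprotein reelin, was read at 6307, 7343 and 6735 in ON-BC and at 106.2, 42.05 and 311.2 in OFF-BC (5.91, standard error 0.64, limma adjusted p = 2.44e-05). *Ano3*, an anoctamin family gene, was read at 596.4, 715.3 and 592 in ON-BC and at 8.941, 1.201 and 41.93 in OFF-BC, and *Smoc2*, which encodes a secreted matrix protein, at 400.4, 323.3 and 299.6 and at 3.353, 1.201 and 13.24. For these 3 genes replicate 3 was the highest of the OFF-BC libraries and replicate 2 the lowest. In OFF-BC the 10 genes were *Cadps2*, *Fam19a4*, *Esam*, *A930009A15Rik*, *Tacr3*, *Opcml*, *Wfdc2*, *Fezf2*, *S100a3* and *Pde1a*, with log2 fold changes from -7.24 to -8.35. *Pde1a*, a calcium-regulated phosphodiesterase gene, was read at 21.67, 24.5 and 8.208 in ON-BC and at 2326, 3505 and 2237 in OFF-BC (-7.24, standard error 0.57, limma adjusted p = 5.97e-07). *S100a3*, a calcium-binding protein gene, had 1 read in the ON-BC libraries together and 206.8, 194.6 and 169.9 normalized counts in OFF-BC, and *A930009A15Rik* was read at 15.48, 11.76 and 8.208 and at 2892, 2498 and 2594.

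Ordered by level instead of fold, other genes led. Per kilobase of exon, the called genes with the highest levels in ON-BC included *Pcp2* (78430 normalized counts per kilobase), *Gnb3* (50333) and *Mt1* (30656), and those with the highest level in OFF-BC were *Gsg1* (97983 per kilobase), *Otor* (12537), *Gnat2*, *Gngt2* and *Nnat*. *Gsg1*, a gene first described in germ cells, was read at 5380, 7156 and 8819 in ON-BC and at 173607, 130898 and 132599 in OFF-BC (-4.37, standard error 0.36, limma adjusted p = 2.89e-06). *Mt1*, which encodes the metal-binding metallothionein 1, was read at 31698, 25145 and 31539 in ON-BC and at 2169, 2029 and 3603 in OFF-BC (3.54, standard error 0.23, limma adjusted p = 3.96e-07). Both genes were also read in every library of the lower population. The long noncoding RNA *A930003A15Rik* was read at 87.71, 99.94 and 82.08 in ON-BC and at 4144, 4252 and 4664 in OFF-BC (-5.58, standard error 0.14). *Qpct* lost its call without any of ON-BC replicates 2 and 3 and OFF-BC replicates 1 and 2 (limma adjusted p up to 0.11), *Ackr1* without ON-BC replicate 1 or OFF-BC replicates 2 or 3 (up to 0.0809) and *Ptgds* without ON-BC replicates 1 or 2 or OFF-BC replicates 1 or 3 (up to 0.0944).

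The promoters of called genes were open to different degrees in the ATAC-seq libraries of the same populations (2 libraries each, from mice of the same genotype), a measure that was not used to call the genes. For each gene the region of highest signal within 1000 bp before and 100 bp after a start site was taken, and such a region was found for 294 of the 393 genes higher in ON-BC and for 358 of the 481 higher in OFF-BC. The median log2 difference in signal was 0.51 for the former (0.45 to 0.64 over the pairs of libraries) and -0.22 for the latter (-0.26 to -0.19), beside 0.11 (0.08 to 0.12) for 12119 tested genes with a region. Both ON-BC libraries were above both OFF-BC libraries at 58.5% of the former, at 22.1% of the latter and at 33.8% of all tested genes, and the reverse held at 9.52%, 40.5% and 17.2%. *Isl1* had a signal of 301.6 and 342.6 in ON-BC and of 13.47 and 17.52 in OFF-BC, and *Esam* 8.959 and 5.857 in ON-BC and 99.69 and 85.66 in OFF-BC. *Fam19a4* had 50.76 and 54.17 in ON-BC and 278.9 and 194.7 in OFF-BC. At other called genes the promoter did not follow the RNA. *Gsg1* and *Grik2*, both higher in OFF-BC as RNA, had a promoter signal that was higher in both ON-BC libraries (log2 differences 0.71 and 0.70), and at *Cadps2* and *Opcml* the libraries overlapped (-0.37 and 0.33). Of the promoters of called genes, those of *Isl1* (ON-BC) and *Fam19a4* (OFF-BC), whose signal differed with their RNA, and of the receptor gene *Grm6*, for which no region was found at the annotated starts, are shown as the 250 bases before a start site in RefSeq (GRCm38.p6), 5′ to 3′ on the strand of the gene. Capitals mark TAATCC, a core that CRX and OTX2 recognise, TAATTA or TAATTG, cores of other homeodomain factors, and CANNTG, the E-box of basic helix-loop-helix factors, searched on both strands. The windows are chr11:50850435-50850684 (+ strand, *Grm6*, a start site inside the annotated span of the gene), chr13:116309689-116309938 (- strand, *Isl1*) and chr6:97060412-97060661 (- strand, *Fam19a4*).
Grm6: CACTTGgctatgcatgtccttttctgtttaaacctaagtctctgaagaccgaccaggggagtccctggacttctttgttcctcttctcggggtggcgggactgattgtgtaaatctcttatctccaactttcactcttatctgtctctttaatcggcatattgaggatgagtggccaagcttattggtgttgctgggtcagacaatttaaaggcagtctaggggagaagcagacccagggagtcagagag
Isl1: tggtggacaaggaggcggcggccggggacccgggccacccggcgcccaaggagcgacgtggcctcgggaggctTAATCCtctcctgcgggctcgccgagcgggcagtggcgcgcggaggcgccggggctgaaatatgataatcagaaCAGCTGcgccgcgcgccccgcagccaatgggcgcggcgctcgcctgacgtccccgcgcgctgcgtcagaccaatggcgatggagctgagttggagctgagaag
Fam19a4: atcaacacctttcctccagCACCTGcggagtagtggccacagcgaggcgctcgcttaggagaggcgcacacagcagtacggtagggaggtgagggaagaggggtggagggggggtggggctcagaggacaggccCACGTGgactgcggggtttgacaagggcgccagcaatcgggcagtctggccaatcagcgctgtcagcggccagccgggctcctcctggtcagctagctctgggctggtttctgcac
The *Isl1* window holds 1 TAATCC and 1 CANNTG, the *Grm6* window 1 CANNTG and the *Fam19a4* window 2, with no overlap between matches. Of the 32851 windows of this length in the table, 6.25% held TAATCC, 11.3% TAATTA or TAATTG and 66.2% CANNTG, so a match is a description of these letters and not a site.

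The mGluR6 cascade was higher in ON-BC at 8 of its 14 tested members and lower at none (57.1% called, median log2 fold change 2.39), and this count was the same with any 1 library left out. The receptor, the channel and the G protein changed by different amounts. *Trpm1*, the channel gene, was read at 59198, 59745 and 51663 in ON-BC and at 5930, 5394 and 7567 in OFF-BC (3.19, standard error 0.23, limma adjusted p = 2.61e-06). *Gpr179*, whose product anchors regulators of the cascade, was read at 14284, 15429 and 11989 in ON-BC and at 642.6, 919.1 and 1441 in OFF-BC (3.87, standard error 0.33, limma adjusted p = 6.83e-06). Both log2 fold changes were smaller than the 6.24 of *Grm6*. Among the G protein genes, *Gnao1*, the alpha subunit, had 14631 ± 1111 and 3014 ± 595.5 (SD, n = 3, log2 fold change 2.29), and *Gnb3*, the beta subunit, was read at 83169, 86838 and 108739 in ON-BC and at 14021, 8977 and 18240 in OFF-BC (2.81, standard error 0.23, limma adjusted p = 1.77e-05). *Gnb5*, the partner of the RGS regulators, changed by 1.70 on this scale, *Pcp2*, a Go modulator, by 2.48 and *Cacna1s*, a calcium channel gene found in this cascade's complex, by 2.62. The levels of *Gnb3* in OFF-BC were 6.51%, 4.17% and 8.47% of the blue cone mean, and cones are known to use this subunit.

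The other 6 members of the cascade did not pass the test. *Gng13*, the gamma subunit, was read at 40893, 42741 and 39853 in ON-BC and at 11642, 9876 and 14122 in OFF-BC (1.81, standard error 0.30, limma adjusted p = 0.105), and *Nyx*, which encodes the surface protein nyctalopin, at 653.2, 651.6 and 546.9 and at 76, 114.1 and 131.3 (2.55, standard error 0.53, limma adjusted p = 0.0676). The libraries did not overlap at either gene, as at 42.2% of all tested genes, and the tested excess over a log2 fold change of 1 was not reached. The RGS genes *Rgs11* and *Rgs7*, which speed the end of the G protein signal, had log2 fold changes of 1.38 and 1.66 (limma adjusted p = 0.255 and 0.685). *Rgs9bp*, the anchor of the photoreceptor regulator complex, stood at 1119 ± 136.4 against 1001 ± 330.4 in OFF-BC, and *Lrit3*, needed to place nyctalopin and TRPM1 at the dendrite tip, had 12.74 or fewer normalized counts in each ON-BC library.

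**Figure D2:**
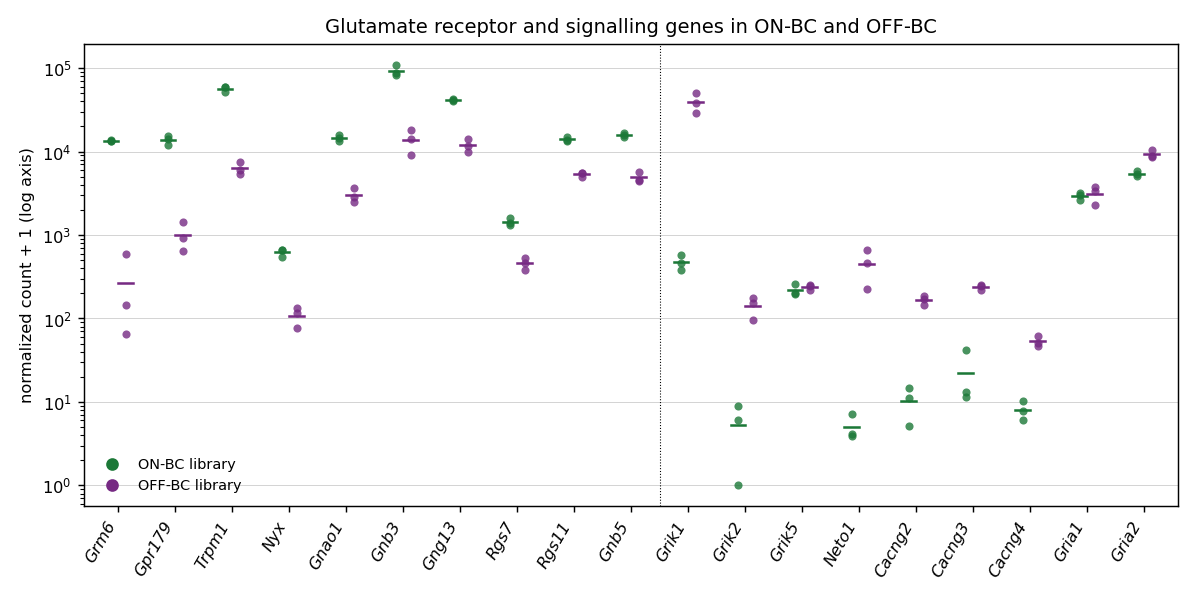
Normalized count + 1 (log axis) of genes of the mGluR6 cascade (left of the dotted line) and of the kainate and AMPA receptors (right) in each ON-BC library (green points) and OFF-BC library (purple points), with short lines at the means. *Grm6* and *Grik1* are separated by over 16-fold in opposite directions, while *Gria1*, *Grik5* and *Gria2* lie close together in both populations.

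The genes of ionotropic glutamate receptors differed in their accessory subunits as well as in the receptor itself. Of 15 tested kainate and AMPA receptor genes, 6 were higher in OFF-BC and none in ON-BC (40% called, median log2 fold change -0.78), again with any 1 library left out. Beside *Grik1*, the kainate subunit gene *Grik2* was read at 0, 7.839 and 5.13 in ON-BC and at 93.88, 176.6 and 153.4 in OFF-BC (-5.18, standard error 0.62, limma adjusted p = 9.77e-05). *Neto1*, the auxiliary subunit of kainate receptors, was read at 6.191, 2.94 and 3.078 in ON-BC and at 224.6, 659.6 and 463.5 in OFF-BC (-6.40, standard error 0.41, limma adjusted p = 8.02e-08). Neither gene overlapped between the populations, as no called gene did. *Cacng2*, *Cacng3* and *Cacng4*, which encode the AMPA receptor regulatory proteins stargazin, gamma-3 and gamma-4, had OFF-BC means of 166 ± 20.12, 237.7 ± 14.76 and 52.27 ± 8.196 (SD, n = 3) and ON-BC means of 9.368 ± 4.857, 21.26 ± 17.26 and 7.084 ± 2.047. The AMPA receptor pore subunits themselves were present in both populations. *Gria1* was read at 2638, 3162 and 3003 in ON-BC and at 3763, 3378 and 2262 in OFF-BC (log2 fold change -0.07, standard error 0.40), and *Gria2* had 5428 ± 434.8 and 9312 ± 1016 (-0.78, standard error 0.15). *Neto2* (-0.36) and *Grik5* (-0.14), a kainate subunit that needs a partner, did not pass the test either, and *Cacng5* had 192.9 ± 51.69 in ON-BC and 46.19 ± 29.52 in OFF-BC (2.32, limma adjusted p = 0.507).

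Of 7 tested NMDA and delta receptor genes, *Grin3a* was higher in ON-BC (592.3, 634.9 and 617.7 against 15.65, 6.007 and 55.17 in OFF-BC, log2 fold change 5.04 with standard error 0.74, limma adjusted p = 0.000707). It encodes a glycine-binding NMDA receptor subunit, while *Grin1*, the subunit that NMDA receptors require, had values of 407.6 to 484.3 in ON-BC and 377.4 to 444.8 in OFF-BC. *Grin2b* was read at 40.24, 29.4 and 1050 in ON-BC and at 1997, 682.4 and 666.5 in OFF-BC, so that ON-BC replicate 3 lay within the OFF-BC range, and it was called higher in OFF-BC without that library. No GABA or glycine receptor gene was called among 21 tested (median log2 fold change -0.13). *Gabrr1*, which encodes a subunit of the GABA-C receptor, had a mean of 16483 ± 1543 in ON-BC and of 16983 ± 2633 in OFF-BC. *Glra1*, a glycine receptor subunit gene, was read at 555.1, 560.5 and 521.2 in ON-BC and at 2670, 2159 and 2043 in OFF-BC and missed the threshold (-2.06, standard error 0.44, limma adjusted p = 0.172). Its libraries did not overlap, as at 42.2% of all tested genes.

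In a list of G protein-coupled receptor genes, mostly for amines and peptides, 8 of 42 tested members were called in the ON direction and 7 in the OFF direction (19% and 16.7%, median log2 fold change 0.12). The list also holds metabotropic glutamate receptor genes, and the 8 include *Grm5* and *Grm6*, whose promoter drives the sorted YFP. The ON-BC group held *Drd2*, the D2 dopamine receptor gene, which was read at 835.8, 1101 and 837.2 in ON-BC and at 13.41, 8.41 and 47.45 in OFF-BC (5.61, standard error 0.60, limma adjusted p = 2.4e-05). *Tacr1*, the neurokinin 1 receptor gene, was read at 206.4, 335.1 and 230.9 in ON-BC and at 10.06, 0 and 13.24 in OFF-BC (5.55, standard error 0.85, limma adjusted p = 0.000938). *Tacr3*, its relative, thus lay on the opposite side of the comparison. *Adra2b*, an alpha-2 adrenergic receptor gene, had 713.8 ± 131.2 and 32.34 ± 7.72, and *Grm5*, a group I metabotropic glutamate receptor gene, 2962 ± 279 and 392.7 ± 26.52. *Npy5r* had no reads in OFF-BC and 17 to 27 reads in the ON-BC libraries, which makes it at least 19.5-fold higher in ON-BC against a floor of 3 reads over the group. In OFF-BC, *Adora1*, the A1 adenosine receptor gene, was read at 38.18, 45.07 and 13.34 in ON-BC and at 1129, 1067 and 1081 in OFF-BC (-5.21, standard error 0.40, limma adjusted p = 9.65e-07). *Htr2a*, a serotonin receptor gene, stood at 41.38 ± 19.59 in OFF-BC against 1.026 ± 1.777. *Adrbk2*, which the list holds by its symbol, encodes a kinase that acts on such receptors and not a receptor (28.59 ± 8.792 in ON-BC and 773.5 ± 212.7 in OFF-BC, -4.73). With 1 library left out, 6 to 9 genes were higher in ON-BC and 6 or 7 in OFF-BC. *Adra2c* lost its call without any library but OFF-BC replicate 3 (limma adjusted p up to 0.166) and *Oprm1* without any of replicates 1 and 2 of both populations (up to 0.181).

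Transcription factor genes with a known place in the retina were called at 12 of 75 tested members in ON-BC and at 8 in OFF-BC (16% and 10.7%, median log2 fold change 0.15). *Fezf2*, a zinc finger gene, was read at 15.48, 14.7 and 15.39 in ON-BC and at 2687, 2331 and 2567 in OFF-BC (-7.29, standard error 0.35, limma adjusted p = 2.87e-09). *Irx5*, an Iroquois homeobox gene, was read at 1.032, 0 and 0 in ON-BC and at 76, 126.1 and 145.7 in OFF-BC, and its relative *Irx6* at 113.5, 166.6 and 122.1 and at 6414, 7249 and 6644. The helix-loop-helix gene *Ebf1* had 21.26 ± 1.135 in ON-BC and 458.2, 1174 and 737.1 in the OFF-BC libraries (-5.05, standard error 0.42, limma adjusted p = 1.99e-06). *Bhlhe22* and the LIM-only gene *Lmo1* changed by -4.25 and -4.16. *Sox9*, a gene of Müller glia that is not in this list, was read at 35.08, 14.7 and 25.65 in ON-BC and at 1490, 1477 and 1235 in OFF-BC (-5.82, standard error 0.32, limma adjusted p = 2.33e-08). Of the 14 tested Müller glia genes, 12 were not called, *Gpr37* was higher in ON-BC, and the summed level of the list was 40863 to 71609 in ON-BC and 53718 to 67563 in OFF-BC. In either direction 14.3% of the list was called, beside 6.23% of all tested genes. The number higher in OFF-BC was 2 in place of 1 without OFF-BC replicate 3 and without ON-BC replicate 2, and the part of these cells in the result was not tested.

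On the ON side, *Isl1* was followed by *St18*, a zinc finger gene of the MYT family, with 2790, 3030 and 2196 in ON-BC and 53.65, 32.44 and 172.1 in OFF-BC (5.28, standard error 0.62, limma adjusted p = 6.94e-05). *Sebox*, a homeobox gene, was read at 21081, 23252 and 22798 in ON-BC and at 756.6, 439.7 and 1918 in OFF-BC (4.70, standard error 0.33, limma adjusted p = 3.63e-07). *Sebox* and *Isl1* were among the 10 called genes with the highest level per kilobase in ON-BC. *Lmo4* and *Lmo3*, relatives of *Lmo1*, changed by 3.87 and 4.88, *Prdm8* by 2.84, *Neurod2* by 3.14, *Bhlhe23*, a relative of *Bhlhe22*, by 2.20 and *Mef2c* by 1.58. *Otx2* and *Crx*, homeobox genes of bipolar cells and photoreceptors, were present in both populations, with log2 fold changes of -0.33 and 0.37, neither of which passed the test. *Vsx1*, known from OFF and some ON cone bipolar types, was read at 1049, 1028 and 847.5 in ON-BC and at 175.5, 335.2 and 350.9 in OFF-BC (1.82, standard error 0.56, limma adjusted p = 0.749). Leaving out 1 library gave 10 to 12 genes higher in ON-BC and 6 to 9 in OFF-BC, and the calls of *Maf*, *Nfib* and *Tshz3* were lost without 4, 3 and 3 of the libraries (limma adjusted p up to 0.161 and 0.0916 without OFF-BC replicate 1 and up to 0.106 without ON-BC replicate 1).

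The calcium and potassium channel lists, chosen by gene symbol, had most of their calls in OFF-BC, but not every called member encodes a channel. Of 23 tested calcium channel genes, 7 were higher in OFF-BC and 3 in ON-BC (30.4% and 13%, median log2 fold change -0.34), with 3 of the 7 being the AMPA receptor regulators *Cacng2* to *Cacng4*. The auxiliary alpha-2-delta subunits were divided. *Cacna2d2* was read at 26.83, 62.71 and 23.6 in ON-BC and at 2401, 2569 and 2058 in OFF-BC (-6.05, standard error 0.37, limma adjusted p = 5.97e-08), and *Cacna2d3* at 9486, 10606 and 8356 in ON-BC and at 1693, 2473 and 2678 in OFF-BC (2.08, standard error 0.21, limma adjusted p = 0.00125). *Cacna1f*, the pore subunit of ribbon synapses, stood at 4071 ± 139.3 against 5180 ± 617.9 in OFF-BC (-0.34) and was not called. Leaving out any of the 6 libraries ended the calls of *Cacna1g* and *Cacna2d1* (limma adjusted p up to 0.0683 and 0.127), so that 5 calcium channel genes were higher in OFF-BC, and 4 without ON-BC replicate 1, when *Cacnb3* reached 0.0503. *Cacna1e* in ON-BC lost its call without ON-BC replicates 1 or 3 or OFF-BC replicate 2 (up to 0.181).

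Of 61 tested potassium and HCN channel genes, 8 were higher in OFF-BC and 4 in ON-BC (13.1% and 6.56%, median log2 fold change 0.21). *Kcnh8*, a voltage-gated channel gene of the ether-a-go-go family, was read at 4.127, 2.94 and 4.104 in ON-BC and at 506.3, 567.1 and 348.7 in OFF-BC (-6.63, standard error 0.55, limma adjusted p = 1.13e-06), and *Kcnj2*, an inward rectifier gene, at 0, 5.879 and 5.13 and at 119.6, 164.6 and 123.6. *Kcnip4*, which encodes a calcium sensor that binds Kv4 channels, had 323.2 ± 64.91 in ON-BC and 5055 ± 749.1 in OFF-BC (-3.97). The libraries of the populations did not overlap at these genes, as at every called gene. *Kcnd3*, a Kv4 channel gene, had 462.8 ± 3.921 and 2195 ± 152.6 and just missed the threshold (-2.24, standard error 0.40, limma adjusted p = 0.0512). *Kcnd3os*, listed as its opposite-strand gene and counted among the 8, was higher in OFF-BC (-4.77). Reads of the 2 cannot be told apart unless the counting used strand, which is not given in the sources used here. *Kcne2*, an auxiliary subunit gene, was read at 6194, 5351 and 5639 in ON-BC and at 270.5, 385.7 and 1585 in OFF-BC (3.38, standard error 0.42, limma adjusted p = 0.00053). With 1 library left out, 8 or 9 genes were higher in OFF-BC. Without OFF-BC replicates 1 or 2 or ON-BC replicate 2, only 2 genes were higher in ON-BC, and *Kcnip2* was among the calls lost (limma adjusted p up to 0.226). Of 10 tested sodium channel genes 2 were higher in ON-BC (20%, beside 2.8% of all tested genes). They included *Scn4a* (129.2 ± 18.82 and 30.62 ± 10.44), which was not called without OFF-BC replicate 3 or ON-BC replicates 2 or 3 (limma adjusted p up to 0.15).

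Of 44 tested ribbon and vesicle release genes, 2 were called in each direction (4.55% each, beside 2.8% in the ON and 3.43% in the OFF direction over all tested genes, median log2 fold change 0.03). *Ctbp2*, which encodes the ribbon protein RIBEYE, stood at 9043 ± 406.4 against 10568 ± 1316 in OFF-BC (-0.22), and *Slc17a7*, the vesicular glutamate transporter gene, 5070 ± 158.4 and 6700 ± 1326 (-0.38). *Cadps2*, a priming factor of dense-core vesicles, was read at 0, 1.96 and 0 in ON-BC and at 566.6, 460.1 and 389.5 in OFF-BC (-8.35, standard error 0.42, limma adjusted p = 3.82e-09). *Syt12* was also higher in OFF-BC (6.07 ± 3.074 and 203.2 ± 42.18, -4.93), and *Rph3a*, which encodes the vesicle protein rabphilin, in ON-BC (804.1 ± 140.9 and 47.68 ± 20.42, 4.12). *Syt7*, the other gene called in ON-BC, lost its call without any of replicates 1 and 2 of both populations (limma adjusted p up to 0.123), and the genes higher in OFF-BC numbered 4 without ON-BC replicate 2 and 3 without OFF-BC replicate 3. Among 23 tested calcium sensor genes, 3 were higher in OFF-BC and 2 in ON-BC (13% and 8.7%, beside 3.43% and 2.8% of all tested genes). The latter count fell to 0 without OFF-BC replicates 1 or 2 or ON-BC replicates 2 or 3 and to 1 without ON-BC replicate 1. *Hpcal4* was higher in OFF-BC (954.3 ± 222.3 and 4426 ± 498.4, -2.23), while *Cabp5*, a calcium-binding protein gene of several bipolar types, had 31237 ± 1613 and 59273 ± 6760 (-0.92, not called). Of 6 tested gap junction genes, 2 were higher in OFF-BC (33.3%, beside 3.43% of all tested genes). *Panx1* was higher in OFF-BC (18.08 ± 8.865 and 303 ± 32.56, -4.12) and *Gjd2*, the neuronal connexin gene, was not called (1051 ± 131.5 and 813.1 ± 153.1). The other called gene, *Gjc1*, was not called without any library but ON-BC replicate 2 (limma adjusted p up to 0.25).

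**Figure D3:**
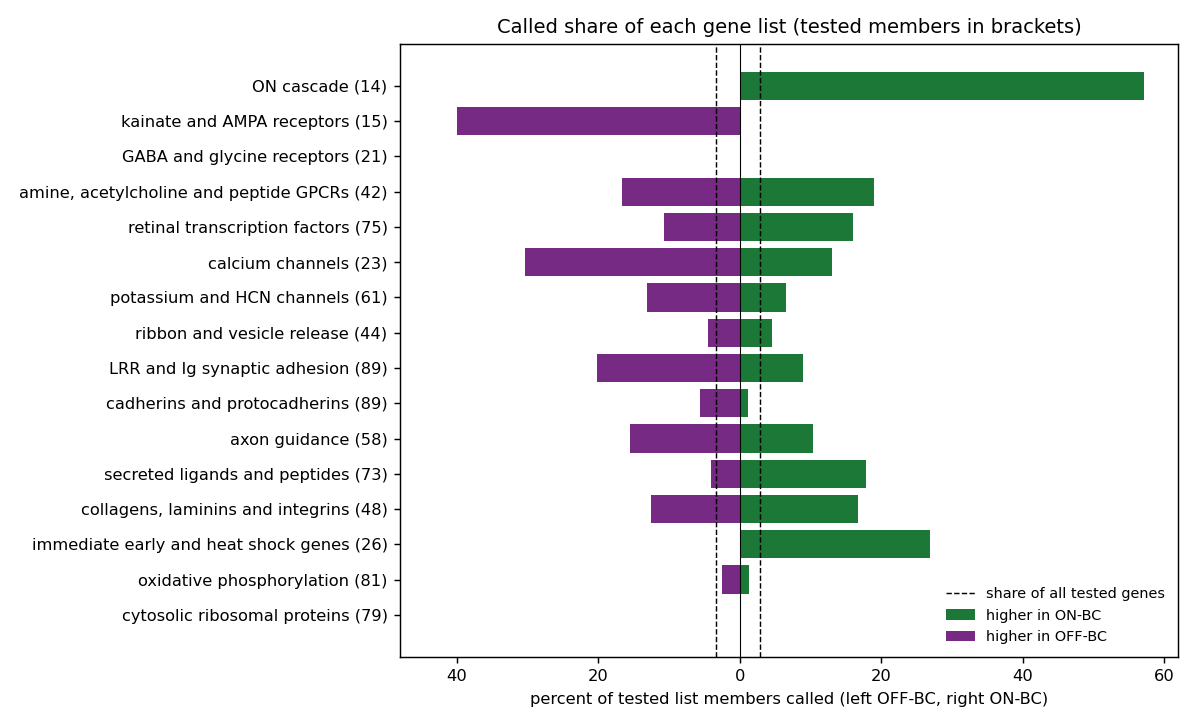
Share of the tested members of each gene list (numbers in brackets) called higher in ON-BC (green, to the right) or in OFF-BC (purple, to the left), in percent, with dashed lines at the share of all tested genes, 2.8% and 3.43%. The mGluR6 cascade extends to 57.1% on the ON side and the kainate and AMPA receptors to 40% on the OFF side, while the GABA and glycine receptors and the cytosolic ribosomal proteins have no called member.

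Adhesion genes with leucine-rich or immunoglobulin domains, many of which act at synapses, were called at 18 of 89 tested members in OFF-BC and at 8 in ON-BC (20.2% and 8.99%, median log2 fold change -0.10). *Igsf3* was read at 89.77, 81.33 and 59.51 in ON-BC and at 6087, 5221 and 5119 in OFF-BC (-6.15, standard error 0.22, limma adjusted p = 7.36e-11), and *Slitrk6*, a leucine-rich repeat gene, at 63.98, 159.7 and 68.74 and at 6435, 7296 and 4665 (-6.07, standard error 0.28, limma adjusted p = 2.48e-09). *Kirrel2*, of the nephrin family, was read at 2.064, 7.839 and 6.156 in ON-BC and at 616.9, 552.7 and 499.9 in OFF-BC. Each of these was higher in every OFF-BC library, as was every gene called in OFF-BC. The 2 other *Kirrel* genes changed the same way, *Kirrel* by -4.13 and *Kirrel3* by -2.97. *Opcml*, of the IgLON group, and *Nxph4* and *Nxph1*, which encode secreted ligands of neurexins, had OFF-BC means of 400.9 ± 56.9, 271.9 ± 44.1 and 389.3 ± 117.8 and ON-BC means of 1.648 ± 2.032, 3.66 ± 2.957 and 9.067 ± 7.331. *Lrfn5* had no reads in ON-BC and 22 to 40 reads in the OFF-BC libraries, at least 32.6-fold higher. *Lrrtm3* and *Lrrtm2*, postsynaptic organisers, changed by -5.44 and -2.11. In ON-BC, *Cntn5*, a contactin gene, was read at 1264, 1467 and 1489 and in OFF-BC at 38, 15.62 and 121.4 (5.03, standard error 0.61, limma adjusted p = 0.000114), and *Sdk1*, a sidekick gene known for laminar targeting in the retina, at 455, 413.5 and 257.5 and at 14.53, 20.42 and 26.48. *Lphn2*, a latrophilin gene, and *Il1rap* changed by 3.31 and 3.53. The ON-BC count stayed at 8 and the OFF-BC count at 15 to 18 with 1 library left out.

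Cadherins and protocadherins were called at 1 gene in ON-BC and 5 in OFF-BC of 89 tested (1.12% and 5.62%, median log2 fold change 0.00). In either direction 6.74% of the list was called, close to the 6.23% of all tested genes. *Fat4*, a giant cadherin gene, was read at 12.38, 49.97 and 5.13 in ON-BC and at 1509, 2146 and 1365 in OFF-BC (-6.67, standard error 0.59, limma adjusted p = 2.34e-06), and its relative *Fat3* had 158.1 ± 52.85 and 1254 ± 176.4 (-3.03). *Pcdh11x* in ON-BC and *Pcdh20* in OFF-BC were called. *Pcdh11x* lost its call without OFF-BC replicate 3 or ON-BC replicates 1 or 2 (limma adjusted p up to 0.0635), and *Pcdh20* without ON-BC replicates 2 or 3 or OFF-BC replicates 1 or 2 (up to 0.0897).

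Guidance genes were called at 6 of 58 tested members in ON-BC and at 9 in OFF-BC (10.3% and 15.5%, median log2 fold change -0.17), with secreted cues on both sides. *Slit3* was read at 203.3, 106.8 and 141.6 in ON-BC and at 2.235, 0 and 2.207 in OFF-BC (6.07, standard error 0.52, limma adjusted p = 1.96e-06), whereas *Slit2*, another secreted ligand of Robo receptors, was read at 625.3, 683.9 and 517.1 in ON-BC and at 7965, 12513 and 10167 in OFF-BC (-4.05, standard error 0.54, limma adjusted p = 0.000555). *Sema3e* and *Sema3d*, secreted semaphorin genes, had 369.2 ± 83.94 and 175.5 ± 15.26 in ON-BC and 6.347 ± 3.777 and 7.473 ± 5.967 in OFF-BC. *Sema3f* and *Sema5b* changed in the other direction by -1.76 and -2.91. The semaphorin receptors that were called were all higher in OFF-BC. *Nrp1*, the neuropilin 1 gene, was read at 7.223, 7.839 and 3.078 in ON-BC and at 353.2, 460.1 and 352 in OFF-BC (-5.86, standard error 0.32, limma adjusted p = 2.18e-08), and the plexin genes *Plxna2* and *Plxna4* changed by -3.99 and -2.77. *Epha7*, an ephrin receptor gene, was higher in ON-BC (9388 ± 708.6 and 2253 ± 216.2, log2 fold change 2.06). *Robo3* had no reads in ON-BC and 13 to 20 in the OFF-BC libraries, at least 17.4-fold higher. With 1 library left out, 4 to 6 guidance genes were higher in ON-BC and 7 or 8 in OFF-BC, and *Robo2*, *Sema6a* and *Epha10* lost their calls without 3, 4 and 3 of the libraries (limma adjusted p up to 0.128, 0.126 and 0.0724, each without OFF-BC replicate 1).

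Secreted ligands and peptides were called mainly in ON-BC, at 13 of 73 tested genes against 3 in OFF-BC (17.8% and 4.11%, median log2 fold change 0.01). Beside *Reln*, *Tgfb2* was read at 6906, 6613 and 6973 in ON-BC and at 868.4, 224.7 and 612.4 in OFF-BC (3.79, standard error 0.39, limma adjusted p = 5.49e-05), and *Bmp7*, of the same superfamily, at 950.3, 1015 and 1277 and at 65.94, 36.04 and 107. *Cxcl12*, a chemokine gene, was read at 299.2, 424.3 and 480.2 in ON-BC and at 5.588, 1.201 and 20.97 in OFF-BC (5.85, standard error 0.75, limma adjusted p = 0.000141). *Cck*, the cholecystokinin gene, had 606.2 ± 160.3 and 27.66 ± 2.474, and *Nrg1*, which encodes neuregulin 1, 1316 ± 73.26 and 154.8 ± 44.45. The neuregulin receptor gene *Erbb4* lay on the other side, as given above. Of the Wnt genes, *Wnt5b* (124.8 ± 35.67 and 2.584 ± 2.775), *Wnt5a*, *Wnt10a* and *Wnt4* were higher in ON-BC. The 3 OFF-BC genes were all of the FAM19A family of chemokine-like peptides. *Fam19a3* was read at 1121, 1815 and 1460 in ON-BC and at 17898, 16076 and 14542 in OFF-BC (-3.49, standard error 0.18, limma adjusted p = 4.85e-08), *Fam19a4* at 15.48, 5.879 and 4.104 and at 2322, 2023 and 1890, and *Fam19a2* at 28.73 ± 9.55 and 386.1 ± 9.304. With 1 library left out, 11 to 13 genes were higher in ON-BC and 3 or 4 in OFF-BC.

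Matrix genes were called in both directions, at 8 of 48 tested collagen, laminin and integrin genes for ON-BC and at 6 for OFF-BC (16.7% and 12.5%, median log2 fold change 0.47). *Col4a1* and *Col4a2*, whose products form the collagen IV of basement membranes, had 1408 ± 23.27 and 920.7 ± 23.43 in ON-BC and 45.22 ± 33.74 and 52.29 ± 27.35 in OFF-BC (5.17 and 4.23). *Col1a2* and *Col27a1* changed by 5.30 and 4.99, and all 4 called integrin genes (*Itga3*, *Itga11*, *Itgav* and *Itgb4*) were higher in ON-BC. In OFF-BC, *Col11a1* was read at 634.8, 943.1 and 745.9 against 6.191, 10.78 and 4.104 in ON-BC (-6.66, standard error 0.60, limma adjusted p = 2.75e-06). The called laminin genes *Lama1*, *Lama2* and *Lama3* were all higher in OFF-BC. *Lama1* lost its call without ON-BC replicates 2 or 3 or OFF-BC replicates 1 or 2 (limma adjusted p up to 0.12). The levels of the laminin genes were low, with OFF-BC means of 19.34 ± 2.613, 66.39 ± 27.39 and 33.51 ± 16.77.

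Some related genes stood on opposite sides of the comparison. Within the gene lists, 17 families, defined by the stem of the gene symbol, had at least 1 member called in each direction, with 22 members in ON-BC and 20 in OFF-BC. The number of stems examined was not counted, here or over all called genes, so no share is given. Stems with many tested members, such as Sema (18) and Pcdh (12), have more room for calls in both directions. The Htr stem joins the channel gene *Htr3a* and the G protein-coupled receptor gene *Htr2a*. In the Cacna, Epha, Kcnip, Pcdh, Robo and Syt families, a direction rested on 1 member whose call was lost when any of several single libraries was left out (*Cacna1g*, *Epha10*, *Kcnip2*, *Pcdh11x* and *Pcdh20*, *Robo2*, *Syt7*). Beside *Tacr1* and *Tacr3*, *Slit3* and *Slit2*, *Cacna2d3* and *Cacna2d2*, *Lmo4* and *Lmo1*, and *Bhlhe23* and *Bhlhe22*, they included the interleukin-1 receptor accessory-like genes, which encode synaptic organisers. *Il1rapl2* was read at 321.9, 245.9 and 319.1 in ON-BC and at 2.235, 1.201 and 11.03 in OFF-BC (6.06, standard error 0.64, limma adjusted p = 1.96e-05), and *Il1rapl1* at 1.032, 7.839 and 0 in ON-BC and at 57, 87.7 and 36.41 in OFF-BC (-4.46, standard error 0.68, limma adjusted p = 0.00136). The contactin-associated genes were divided in the same way, with *Cntnap2* at 5008, 4599 and 4820 in ON-BC and 435.9, 508.2 and 772.4 in OFF-BC, and *Cntnap5a* at 7.223, 6.859 and 3.078 and at 396.8, 428.9 and 210.8. Neither member of these pairs overlapped between the classes, which held at every called gene. Over all called genes, 64 stems had members in both directions, among them *Trpm* (*Trpm1* in ON-BC and *Trpm3* in OFF-BC), *Gnb* (*Gnb3* and *Gnb5* against *Gnb2*) and *Etv* (*Etv5* against *Etv1*), although a shared stem such as Tmem or Zfp does not always mean related genes.

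**Figure D4:**
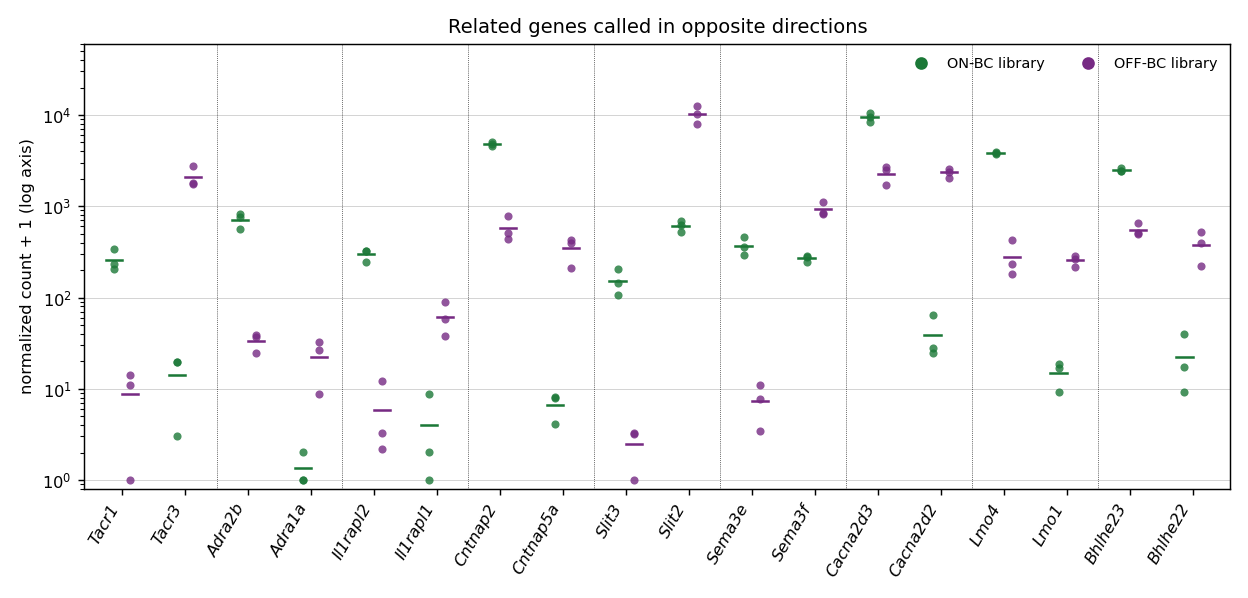
Normalized count + 1 (log axis) of pairs of related genes in each ON-BC library (green points) and OFF-BC library (purple points), with short lines at the means and dotted lines between the 9 families. In each pair the left gene is higher in ON-BC and the right gene higher in OFF-BC.

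No cytosolic ribosomal protein gene was called among 79 tested, although 70 of the 79 fold changes were negative (median -0.42). Of 81 tested oxidative phosphorylation genes, 1 was called in the ON direction and 2 in the OFF direction (1.23% and 2.47%, median -0.19). These shares were below the 2.8% and 3.43% of all tested genes, and in either direction 3.7% of the list was called, beside 6.23%. The called ones encode tissue-restricted subunits of cytochrome c oxidase, *Cox4i2* (62.89 ± 8.755 against 867.8 ± 237.2 in OFF-BC, -3.74) and *Cox6b2* (69.34 ± 16.57 and 536.6 ± 83.25, -2.95), with *Cox8b* in ON-BC, which lost its call without OFF-BC replicate 1 (limma adjusted p = 0.07). The widely expressed *Cox4i1* had 17803 ± 1002 and 20462 ± 2707 and was not called. Of 25 tested glycolysis genes the 2 called (8%, beside 6.23% of all tested genes in either direction) were both higher in OFF-BC and both handle lactate or pyruvate. *Ldhb*, a lactate dehydrogenase subunit gene, was read at 400.4, 587.9 and 437.1 in ON-BC and at 4440, 4298 and 4391 in OFF-BC (-3.22, standard error 0.17, limma adjusted p = 7.48e-08), and *Slc16a7*, the monocarboxylate transporter MCT2 gene, at 46.43, 48.99 and 32.83 and at 6403, 4865 and 4544 (-6.92, standard error 0.43, limma adjusted p = 4.85e-08). The other subunit gene, *Ldha*, had 18049 ± 3717 and 17003 ± 2601 (0.08).

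Immediate early genes were higher in ON-BC at 7 of 26 tested immediate early and heat shock genes and lower at none (26.9%, median log2 fold change 0.67), with 5 to 8 called when 1 library was left out. Their levels varied widely among the ON-BC libraries. *Fos* was read at 894.6, 5116 and 2118 in ON-BC and at 318.5, 258.3 and 300.1 in OFF-BC (2.87, standard error 0.43, limma adjusted p = 0.0057), and *Nr4a1* at 652.1, 2984 and 2349 and at 72.65, 62.47 and 161.1 (4.19, standard error 0.49, limma adjusted p = 0.000129). *Egr1* was read at 246.6, 3677 and 775.7 in ON-BC and at 171, 161 and 139 in OFF-BC and did not pass the test (2.50, standard error 0.77, limma adjusted p = 0.365). ON-BC replicate 1 was the lowest ON-BC library at these 3 genes and replicate 2 the highest. *Jun* (-1.09) and the heat shock genes *Hspa1a* (-1.03), *Dnajb1* (-0.42) and *Hsph1* (-0.15) were not called. These genes respond to handling of cells as well as to activity, and the populations differed in the number of sorts, whose part in the result cannot be told apart from that of the class. *Junb* and *Egr2* each lost their call without 4 of the libraries (limma adjusted p up to 0.18 and 0.13, both without ON-BC replicate 3).

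Photoreceptor genes were read in both populations, in different patterns. Of 19 tested rod genes, 9 passed the test and all 9 were set aside as possible carry-over (1 was called higher in ON-BC without OFF-BC replicate 2). The summed level of the rod genes was 59449 to 67513 in ON-BC and 25366 to 69015 in OFF-BC. Of 12 tested cone genes, 3 were called higher in OFF-BC, 1 in ON-BC (*Gnb3*) and 5 were set aside. The cone transducin alpha gene *Gnat2* was read at 2794, 3446 and 3631 in ON-BC and at 16557, 13813 and 21002 in OFF-BC (-2.37, standard error 0.15, limma adjusted p = 4.87e-06), and its gamma partner *Gngt2* at 1049, 1209 and 1249 and at 12305, 9131 and 14167 (-3.32, standard error 0.18, limma adjusted p = 1e-07). *Cngb3*, a cone channel subunit gene, was also higher in OFF-BC (574.5 ± 27.73 and 1993 ± 202.8, -1.79). These genes and the cone opsin did not keep 1 ratio among the OFF-BC libraries. As a share of the blue cone mean, *Gnat2* stood at 10.1%, 8.46% and 12.9% in OFF-BC replicates 1, 2 and 3, *Gngt2* at 54.7%, 40.6% and 63% and *Cngb3* at 8.05%, 6.9% and 8.42%, so that the highest was 1.22 to 1.55 times the lowest. *Opn1sw* stood at 0.366%, 0.353% and 4.57%, *Arr3* (cone arrestin) at 0.922%, 1.52% and 9.17% and *Pde6h* (a cone phosphodiesterase subunit) at 0.991%, 2.19% and 14.1%, with 9.95 to 14.2 times between the lowest and the highest. Of the other cone genes of the list, *Pde6c* and *Guca1a* differed by 11.3 and 12.4 times and *Cnga3*, at 1.118, 7.209 and 64, by 57.3 times, while *Opn1mw* (0.475%, 1.24% and 1.38%) differed by 2.92 times and *Thrb* (3.89%, 5.33% and 3.57%) by 1.49 times. *Rbp3*, a photoreceptor matrix gene chosen here after its values were seen, went with the former at 6.07%, 4.47% and 5.84%, although it had been set aside. Without OFF-BC replicate 3, the same 3 cone genes were counted as higher in OFF-BC. The part of carried-over cone RNA in the calls was not tested.

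**Figure D5:**
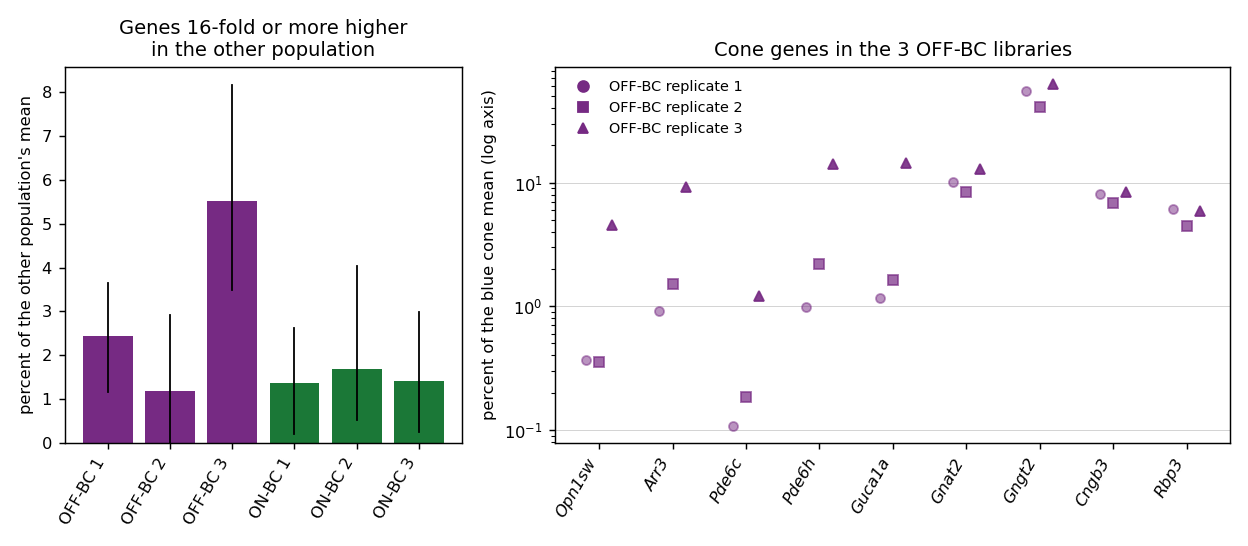
Left, level in each library of the genes called at least 16-fold higher in the other population, as a percent of that population's mean (bars, medians over 125 genes in OFF-BC and 161 in ON-BC, with lines from the lower to the upper quartile). Right, level of cone genes in the 3 OFF-BC libraries as a percent of the blue cone mean (log axis), where replicate 3 (triangles) stands apart at *Opn1sw*, *Arr3*, *Pde6c*, *Pde6h* and *Guca1a* and lies close to the others at *Gnat2*, *Gngt2*, *Cngb3* and *Rbp3*.

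The summed levels of the microglia and amacrine lists were greater in every OFF-BC library than in any ON-BC library. So was that of the ganglion cell list, but most of its OFF-BC sum was the single gene *Ebf1*. The summed level of 12 microglia genes was 273.4 to 362.2 in ON-BC and 599.1 to 727.2 in OFF-BC, with *Csf1r* called (3.009 ± 2.634 and 26.16 ± 10.39, not without ON-BC replicate 3 or OFF-BC replicates 2 or 3, limma adjusted p up to 0.0981), the other 10 tested genes not called, 10 of the 11 fold changes negative (median -1.20), and *Tmem119* at 11.03 or below in every library. The amacrine genes summed to 351.9 to 497.8 in ON-BC and 928.8 to 1125 in OFF-BC, and the ganglion cell genes to 330.2 to 423.3 and 668.4 to 1404. *Ebf1*, also counted above among the transcription factor genes, made up most of the latter sum in OFF-BC. Of 9 tested ganglion cell genes, *Ebf1* was called in OFF-BC and *Nefl* in ON-BC (3.27). The fold changes of this list were positive at 5 genes and negative at 3 (median 0.10), so its sums do not describe the list as a whole. *Slc6a9*, a glycine transporter gene of amacrine cells, was higher in OFF-BC (158.9 ± 29.36 and 566.3 ± 92.69, -1.83), while *Gad1* and *Gad2*, which define GABA-releasing amacrine cells, were at 10.06 to 65.65 in every library and not called. Of the endothelial genes other than *Esam*, *Kdr* lay at 6.191 to 31.24, *Pecam1* at 6.621 to 29.92 and *Flt1* at 11.18 or below in all 6 libraries, and *Plvap* was higher in ON-BC (751.3 ± 208 and 163.3 ± 26.07, not without ON-BC replicates 1 or 3 or OFF-BC replicate 2, limma adjusted p up to 0.0904). No gene of pericytes or horizontal cells was called among 4 and 3 tested. The part of these cells in the other results was not tested. *Xist* and the Y-linked genes *Ddx3y*, *Kdm5d*, *Eif2s3y* and *Uty* were read in all 6 libraries and none was called.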

How the data were processed

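RNA was measured in 3 ON-BC and 3 OFF-BC libraries of sorted retinal cells, grouped by their labels. Per the study's methods, reads were aligned to GRCm38/mm10 with STAR 2.7.0d and counted per gene with HTSeq 1.9 (strand setting not given in the sources used here), and ATAC-seq reads were aligned with Bowtie2 (2.2.5 in the submitters' processing notes, another version in the study's methods), peaks called with MACS2 2.1.1 and reads counted over the union of peaks. The deposited signal values of both tables are counts that the authors scaled with a single factor for each library, since 100.0% of values above 0 were whole multiples of the library's step (tolerance 0.01 read). No value column was left unmapped.

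Values were put on a log2(value + 1) scale and fitted with limma 3.58.1 in R 4.3.3, with genes kept by filterByExpr of edgeR 4.0.16 and all 15 RNA-seq libraries sharing the estimate of the spread. ON-BC was tested against OFF-BC beyond a log2 fold change of 1 with Benjamini-Hochberg adjustment over the 14024 tested genes at 0.05. Genes over 16-fold higher in rods or *Nrl*-/- photoreceptors than in the enriched population were set aside. Depth was 12329548 to 15695544 reads per library, and a fold against a population without reads is a lower bound at a floor of 3 reads over the group, which covers counting error only. The script was tested on simulated data. Alternatives were edgeR, DESeq2 1.42.0, other thresholds, scalings, pseudocounts, filters, samples, carry-over rules and a replicate block.

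Genes named are, in each direction, the 10 called genes of largest change without overlap of libraries and the 10 of highest level per kilobase of exon, the class markers, up to 8 called members of each list in each direction with uncalled members where their level is needed, and families with calls in both directions. The members and lists were chosen with earlier results of these data known. Of the 24062 genes, 23823 were matched to RefSeq GRCm38.p6. Promoter sequences are from RefSeq. The share of called genes with each motif is not given, since the promoter table matched only 77.1% and 73% of the genes called in ON-BC and OFF-BC. The peak lists were not used here, and some named genes are not reported here.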

Additional observations from a re-analysis of the deposited data

How the results depend on the processing

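The threshold and the kind of test decided how many genes were called. Against a log2 fold change of 0, limma gave 1725 genes in the ON direction and 1930 in the OFF direction, against one of 2 it gave 154 and 211, and edgeR's F test with a fitted change of at least 1 gave 902 and 1027. The other alternatives stayed within 1.5 times of 393 and 481: edgeR's test against a log2 fold change of 1 (530 and 633, on the recovered reads), DESeq2 (429 and 510), TMM (400 and 462), scaling to totals (393 and 494), pseudocounts of 0.5 (372 and 456) and 5 (417 and 508), no filter (395 and 480), the 6 libraries alone (445 and 531) and weaker carry-over rules (up to 414 and 505). The share of calls in the ON direction was 42.2% to 47.7% throughout. Leaving out 1 library gave 330 to 396 and 397 to 476 genes. Scaling moved the median log2 fold change of all genes by 0.028 at most.

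Libraries of the same number came from mice of the same age, so they may be paired, but the main fit did not pair them. Same-numbered ON-BC and OFF-BC libraries had correlations of deviations of -0.076, 0.222 and -0.065, beside -0.147 to 0.212 for the others. Only the libraries of number 2 correlated best with each other. With 3 libraries in each population, these correlations cannot decide whether the numbers pair the libraries. With the number as a replicate block the counts were 389 and 473 (841 genes shared), and 447 and 538 with the 6 libraries alone.

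Of 181 named genes that were called, 108 kept their call under every alternative and none changed direction. Against a log2 fold change of 2, 73 lost it, among them *Gnb5*, *Gnao1* and *Cngb3*, 16 lost it under another alternative with all libraries, and 30 lost it without some library. With 3 libraries in each population, genes with few reads or small excess over a log2 fold change of 1 lie at the limit of what the test can call. *Kcnd3* and *Nyx* also missed the threshold narrowly. Their standard errors hold the spread within the other RNA-seq populations too, so these misses do not describe the scatter of ON-BC and OFF-BC replicates alone.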

Other observations

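Libraries of all bipolar cells, sorted together from mice carrying Otx2-GFP alone, were also read at the called genes. Their mean lay between ON-BC and OFF-BC at 285 of the 393 genes higher in ON-BC and above both at 108, and between them at 477 of the 481 genes higher in OFF-BC and below both at 4. These libraries differ from both populations in genotype, and BC5D cells were, by the study's account, missing from ON-BC and OFF-BC. The position is therefore given as a value.

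Some transcripts were read mainly in the libraries of all bipolar cells, and were chosen here after their values were seen. *Stard13*, a gene of a lipid-transfer domain protein, had 71.44 ± 6.101 in ON-BC, 12.38 ± 6.638 in OFF-BC and 520.9 ± 62.48 in all bipolar cells (SD, n = 3). *Lmtk2*, a kinase gene, stood at 493.9 and 505.9 in the sorted classes and at 2295 ± 185.5 in all bipolar cells. *Tuba1c*, an alpha-tubulin gene, was read at 343.6, 6.859 and 11.29 in ON-BC and at 11.18, 3.604 and 459 in OFF-BC, so that 1 library of each class was far above the others, and at 1044 ± 72.97 in all bipolar cells. *Klk1b22*, a kallikrein gene with close relatives, was read at 86.68, 18.62 and 2.052 in ON-BC, at 3.353, 15.62 and 128 in OFF-BC and at 726.3 ± 131.6 in all bipolar cells. *Lrrtm1*, which the study uses as a marker of BC5D cells, was read at 79.45, 121.5 and 83.11 in ON-BC and at 67.06, 56.47 and 115.9 in OFF-BC. It had 448.2 ± 98.39 in all bipolar cells. None of these genes was called between the classes, and the part of BC5D cells in their levels was not tested.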
